A study of Xenopus laevis with 4 samples.

Results

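The organizer homeobox genes gsc, not, lhx1 and hhex encode DNA-binding proteins of the dorsal side of the Xenopus laevis gastrula. All entries of the deposited expression table with one of these symbols were taken, whatever their values, which gave 8 of 45098 entries. The genes themselves were chosen with earlier results of these data known. X. laevis is allotetraploid, and each of the 4 genes has an L and an S homeolog with an entry of its own. RNA was sequenced from whole embryos at the early gastrula stage 10.5 (Nieuwkoop and Faber), in 4 samples of 10 embryos each. TKD embryos (2 samples) were injected at the 1-cell stage with antisense oligonucleotides against tbp, tbp2 and tlf, the triple knockdown of the TATA-binding protein TBP and its relatives TBP2 and TLF. Control embryos (2 samples) received water, so they lack an oligonucleotide control. The labels give 0.8 ng of the oligonucleotide mixture, whereas the methods of the study state a dose for each oligonucleotide. TKD embryos arrest as gastrulation begins, so an equal age need not mean an equal stage.

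The Spemann organizer is the group of dorsal cells that patterns the gastrula, and it forms where Nodal-type signals meet maternal dorsal Wnt signalling. Its homeobox genes are known as direct or early responses to these signals. Gsc is a repressor that keeps ventral and posterior genes silent in the organizer, Lhx1 is a LIM-domain activator that works with the adaptor Ldb1, Not marks the future notochord, and Hhex is a repressor expressed in the anterior endoderm.

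The knockdown reagents are shown because they define the TKD samples. Each is a DNA oligonucleotide with modified linkages at both ends, which protect it, and an unmodified stretch in the middle, at which RNase H can cut the paired mRNA. Capitals mark the bases of the unmodified stretch.
TBPAS3: tgcatTTCGCGCTctaag
TBP2-AS167: tcatcGTATGGAgtcat
TLF-AS93: atatcCAGTGCCacatc

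The deposited table holds means over the 2 samples of a group of normalized counts, which are reads divided by a size factor for depth. Each mean combines whole reads of 2 libraries, and from this the reads of each library were recovered (2517468 and 1411498 in TKD, 5202397 and 3425327 in control embryos). The recovered libraries carry no replicate number and are called deeper and shallower within their group. Among the targeted mRNAs, tbp.S stood at 32.9 and 19.8 normalized counts in the deeper and the shallower TKD library, against 57.8 and 87.7 in the control libraries. Its log2 fold change was −1.31 ± 0.47 (SE), with an adjusted P = 0.0943 (limma-voom) that no longer passed without the deeper TKD library (0.139), its shallower counterpart (0.259) or the shallower control library (0.172), and was 0.122 when libraries were scaled by their totals. For tbp.L the values were 10.3 and 11.6 in TKD against 12.2 and 23.5 in control embryos (adjusted P = 0.638), and tbpl2.L, the gene of TBP2, had too few reads for a test (at most 13 in a library). The gene of TLF is not analysed here. The study itself reported loss of TBP protein in TKD embryos on a western blot, and knockdown of tlf and tbp2 mRNA by RT-qPCR. All 16 entries of a list of early gastrula markers were tested, with 4 higher and 5 lower in TKD embryos (7 and 4 without the shallower control library). They include mix1.S (log2 fold change 1.94, adjusted P = 0.0029) and mix1.L (2.17, adjusted P = 0.00324), against t.L (−2.73, adjusted P = 0.0029) and t.S (−1.85, adjusted P = 0.00512), where t is the brachyury gene of the mesoderm. Of 8 entries of later muscle, nerve and blood markers, only tubb2b.L passed the filter, at 13.2 and 8.27 normalized counts in TKD against 8.11 and 15.7 in control embryos (adjusted P = 0.926). The other 7 had at most 5 reads in a library.

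Transcripts of 7 of the 8 entries were higher in TKD embryos, and no entry was lower. The increase was about 9-fold for gsc.L, close to 5-fold for gsc.S, and between 2.23-fold and 2.98-fold for both not entries, lhx1.L and both hhex entries. Only lhx1.S did not pass the test. Entries were compared with limma-voom on the recovered reads, with adjustment over the 17016 entries that had at least 10 reads in at least 2 libraries. An entry was called at an adjusted P under 0.1, the false discovery rate that the study used. By this rule 1750 of 17016 entries (10.3%) were higher and 2435 (14.3%) were lower, so 41.8% of the calls were higher, a share that was 57.9% when libraries were scaled by their totals. All 8 members passed the filter, with 47 to 335 reads in each library. For 0 members called lower by limma-voom, 0 were lower at an unadjusted P under 0.05 and 0 were called lower by limma-trend. The 8 log2 fold changes had a median of 1.39, beside 0.04 for all entries tested. In all 8 entries the lower TKD value exceeded the higher control value, as it did in 29.9% of all entries tested. No source states that the duplicate samples come from different clutches, and P-values therefore measure only the spread between these particular samples, which may be technical. An exact permutation test of 2 against 2 samples cannot give less than P = 0.333 and was not used for single entries. In whole embryos, more expressing cells and more RNA per expressing cell cannot be told apart, and the place of the transcripts is not shown.

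**Figure D1:**
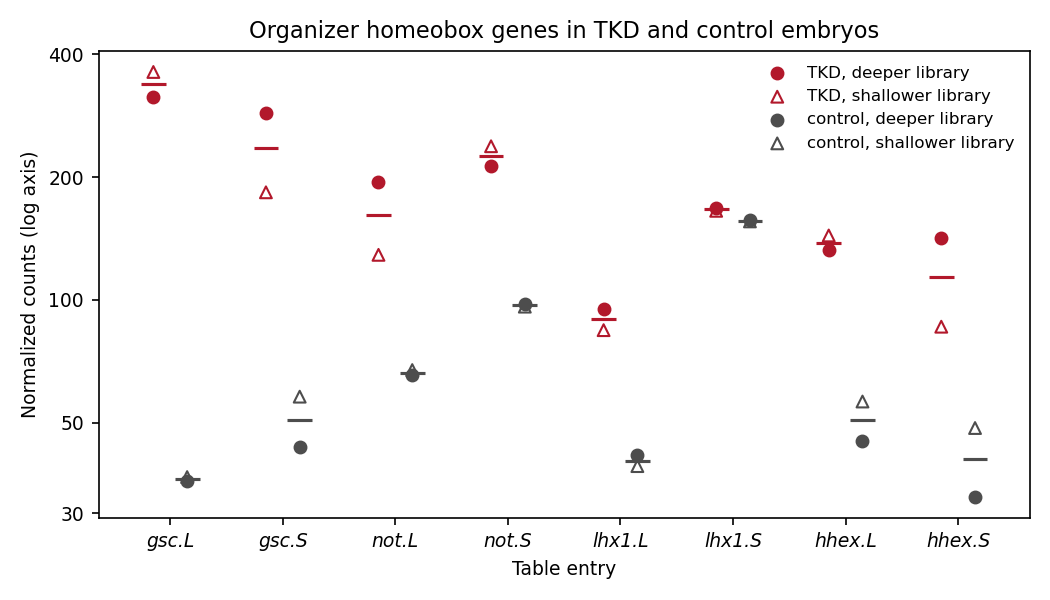
Normalized counts (log axis) of the 8 entries in each library, with TKD left of control; circles are the deeper and triangles the shallower library of a group, and bars are the deposited group means. The TKD points of gsc.L lie at 315 and 362 against 36.0 and 36.8 in the control libraries, while the 4 points of lhx1.S lie between 156 and 168.

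Gsc is the classical organizer transcription factor and a repressor of mesodermal genes. Its L entry had 315 and 362 normalized counts in the deeper and the shallower TKD library, against 36.0 and 36.8 in the control libraries. The lower TKD value was 8.56 times the higher control value, while the 2 TKD libraries differed by 1.15 times. The log2 fold change of gsc.L was 3.20 ± 0.27 (SE, n = 2 per group), a 9.16-fold increase (95% interval 5.94 to 14.1, adjusted P = 0.00271 from limma-voom). Only 20 of the entries tested had a larger positive log2 fold change.

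The S entry of gsc had 288 and 184 normalized counts in the TKD libraries, compared with 43.6 and 57.9 in the control libraries. Here the deeper TKD library was 1.57 times the shallower one, and the groups were still 3.17 times apart at their nearest values. The increase was 4.81-fold (95% interval 2.87 to 8.06), with a log2 fold change of 2.27 ± 0.32 and an adjusted P = 0.00567 (limma-voom). With each library left out in turn, the log2 fold change stayed between 3.11 and 3.31 for gsc.L and between 1.90 and 2.54 for gsc.S, and both passed each time.

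The gene not, a homeobox gene of the future notochord, was higher for both homeologs. Its L entry had 195 and 129 normalized counts in the TKD libraries, compared with 65.4 and 67.3 in the control libraries. Its S entry had 212.5 and 238 in the TKD libraries, compared with 97.9 and 96.3 in the control libraries. The control libraries were nearly equal for both entries, and the TKD libraries lay well above them, with the larger spread for not.L. Log2 fold changes were 1.31 ± 0.29 for not.L (adjusted P = 0.0237) and 1.198 ± 0.23 for not.S (adjusted P = 0.0141), increases of 2.47-fold (95% interval 1.56 to 3.92) and 2.30-fold (1.60 to 3.30). Without the deeper TKD library, not.L no longer passed (log2 fold change 0.96, adjusted P = 0.164), whereas not.S passed without any 1 library.

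Lhx1 acts in the head organizer and in the axial mesoderm, and here its homeologs differed in call. The L entry had 94.97 and 84.3 normalized counts in the TKD libraries, compared with 41.6 and 39.2 in the control libraries. The groups were 2.03 times apart at their nearest values. Its log2 fold change was 1.16 ± 0.30, a 2.23-fold increase (95% interval 1.39 to 3.59, adjusted P = 0.0383). It was 1.06 with an adjusted P = 0.193 without the deeper TKD library.

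The S entry of lhx1 had 168 and 165 normalized counts in the TKD libraries, compared with 157 and 156 in the control libraries. The 2 groups did not overlap, but their nearest values were only 1.06 times apart. The log2 fold change was 0.10 ± 0.22 with a 95% interval of −0.41 to 0.61 (adjusted P = 0.792), so changes from 0.752-fold to 1.52-fold were within reach of the error. It did not pass in any of the 10 other settings of scaling, test, filter, depth and left-out library, in which its log2 fold change ranged from 0.05 to 0.27.

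Hhex, a repressor, is made in the anterior endoderm, which helps to induce the head. The L entry had 133 and 144 normalized counts in the TKD libraries, compared with 45.1 and 56.4 in the control libraries. The S entry had 142 and 86.0 in the TKD libraries, compared with 33.0 and 48.5 in the control libraries. For the S entry the libraries of each group stood further apart (1.65 times in TKD and 1.47 times in control embryos) than for the L entry (1.08 and 1.25 times). The increases were 2.76-fold for hhex.L (95% interval 1.77 to 4.30, log2 fold change 1.46 ± 0.28, adjusted P = 0.0140) and 2.98-fold for hhex.S (1.66 to 5.35, 1.58 ± 0.37, adjusted P = 0.0274). When the deeper TKD library was left out, hhex.S had a log2 fold change of 1.15 and an adjusted P = 0.178. In that fit, 4 of the 8 entries passed (gsc.L, gsc.S, not.S and hhex.L).

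**Figure D2:**
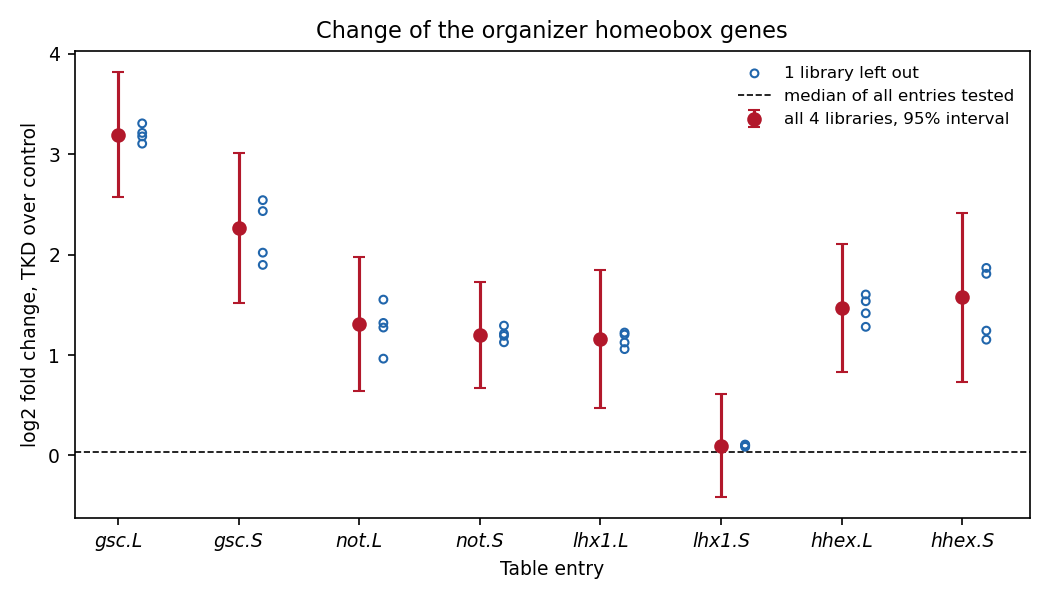
Log2 fold change (TKD over control) of the 8 entries from limma-voom. Red points with bars are the values from all 4 libraries with their 95% intervals, open circles the values with 1 library left out, and the dashed line the median of all entries tested (0.04). The intervals of 7 entries lie above 0, and that of lhx1.S runs from −0.41 to 0.61.

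Reads from stretches that are identical in the L and the S homeolog can be given to either, and the sources used here do not say how the authors' counting treated them. The reads of both entries were therefore also added up. In this form 1465 of 13457 genes (10.9%) were higher in TKD embryos at an adjusted P under 0.1 (limma-voom), and gsc, not and hhex were among them. Added up, gsc had 603 and 546 normalized counts in the TKD libraries, compared with 79.6 and 94.7 in the control libraries. This was a 6.69-fold increase (95% interval 4.71 to 9.50, log2 fold change 2.74 ± 0.22, adjusted P = 0.00205). For not the values were 407 and 367 in TKD against 163 and 164 in control embryos (2.38-fold, 95% interval 1.74 to 3.26, log2 fold change 1.25 ± 0.20, adjusted P = 0.00693).

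For hhex, L and S together had 275 and 229.9 normalized counts in the TKD libraries, compared with 78.1 and 105 in the control libraries (2.87-fold, 95% interval 1.92 to 4.29, log2 fold change 1.52 ± 0.25, adjusted P = 0.0081). For lhx1 they had 263 and 249.7 in the TKD libraries, compared with 198 and 195 in the control libraries. The groups of lhx1 did not overlap, yet the log2 fold change of 0.39 ± 0.20 (95% interval −0.07 to 0.85) did not pass (adjusted P = 0.217). After adding up, the TKD libraries differed by at most 1.195 times (hhex), whereas the L and S entries taken singly differed by up to 1.65 times (hhex.S).

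The share of the L entry among the L and S reads shows how the homeologs divide the transcripts. It is not corrected for length, and its Wilson 95% intervals cover counting error only. The reads carry no molecular identifiers, so copies of the same molecule could make these intervals too narrow. For lhx1 the L share was 36.1% (30.7 to 41.9) and 33.8% (26.7 to 41.6) in the TKD libraries, compared with 21.0% (17.2 to 25.3) and 20.1% (15.6 to 25.5) in the control libraries. The intervals of both TKD libraries lay above those of both control libraries for lhx1, the 1 of the 4 genes for which this held. Among 826 homeolog pairs with similar numbers of reads, 60 (7.26%) were apart by group in this way, in either direction. For gsc the L share was 52.3% (48.4 to 56.1) and 66.4% (61.1 to 71.3) in the TKD libraries, compared with 45.2% (37.6 to 53.0) and 38.8% (30.6 to 47.7) in the control libraries. Both TKD shares exceeded both control shares, but they also differed from each other.

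For not the L share was 47.8% (43.1 to 52.5) and 35.1% (29.2 to 41.6) in the TKD libraries, compared with 40.1% (34.9 to 45.5) and 41.2% (34.7 to 47.9) in the control libraries. The 2 TKD libraries of not enclosed the control values. For hhex it was 48.3% (42.6 to 54.0) and 62.6% (54.3 to 70.2) in the TKD libraries, compared with 57.8% (49.9 to 65.3) and 53.7% (45.3 to 62.0) in the control libraries, again on both sides of the controls. The intervals of the 2 TKD libraries did not overlap for gsc, not and hhex, and those of the 2 control libraries overlapped for all 4 genes. Among the 826 pairs with similar numbers of reads, the intervals did not overlap for 15.7% between the TKD and for 20.8% between the control libraries.

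Whether L and S responded differently was tested on the log2 ratio of L to S in 3666 homeolog pairs with limma-trend. In these, 273 pairs (7.45%) passed at an adjusted P under 0.1. None of the 4 genes passed, while 2 of 4 (gsc and lhx1) had an unadjusted P under 0.05 in this fit, as did 741 of all 3666 pairs (20.2%). The response of lhx1.L exceeded that of lhx1.S by 1.04 ± 0.34 on the log2 scale (95% interval 0.26 to 1.82, adjusted P = 0.139 from limma-trend). For gsc the L entry exceeded the S entry by 1.01 ± 0.39 (0.12 to 1.90, adjusted P = 0.196), and this was 0.59 without the shallower TKD library. The difference was 0.04 for not (−0.77 to 0.85, adjusted P = 0.962) and −0.01 for hhex (−1.02 to 1.00, adjusted P = 0.995), and both changed sign when single libraries were left out. A differing call of lhx1.L and lhx1.S is therefore not a difference that passed its own test.

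**Figure D3:**
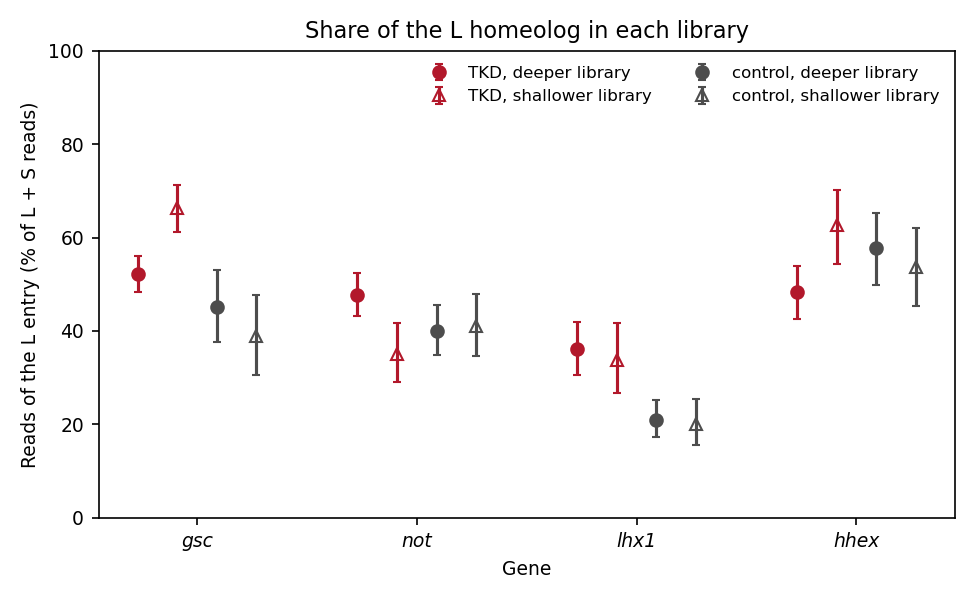
Reads of the L entry as a percentage of the L and S reads of each gene, in the deeper (circles) and shallower (triangles) library of TKD (red) and control embryos (grey), with Wilson 95% intervals. The lhx1 shares lie at 36.1% and 33.8% in the TKD libraries, compared with 21.0% and 20.1% in the control libraries, and the TKD libraries of gsc, not and hhex stand apart from each other.

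Signals and partners of these genes were described from gene lists in the same fit, with the background shares of 10.3% higher and 14.3% lower for all entries. Some symbols of these lists found no entry, so the counts need not cover a whole list. Of 23 tested entries for Nodal and Vg1-type signals, their receptors, effectors and the antagonist Lefty, 9 were higher and 1 was lower in TKD embryos (median log2 fold change 0.30). The higher ones include lefty.L (1.18, adjusted P = 0.0829) and nodal2.S, which passed the filter on reads through the TKD libraries alone. The call of lefty.L held in 6 of 10 other settings, and its log2 fold change was 0.68 without the deeper TKD library. Its homeolog lefty.S did not pass (0.73, adjusted P = 0.2545). The lower entry of the list was the receptor entry acvr2a.S (−0.91, adjusted P = 0.0433), and no entry of acvr1b, acvr2a or acvr2b was higher. The Nodal ligand gene nodal6.L rose by 2.51 ± 0.34 on the log2 scale (adjusted P = 0.00512), and nodal1.L rose by 2.71 ± 0.56 (adjusted P = 0.0192, but 0.115 without the deeper control library). The gene of FoxH1, the transcription factor that carries Nodal signals to DNA with Smad proteins, rose by 1.19 ± 0.20 (foxh1.L, adjusted P = 0.00982). The Nodal co-receptor gene tdgf1.1.L rose by 1.31 ± 0.25 (adjusted P = 0.0155), from a group mean of 65.3 in control to 163 in TKD embryos. The more abundant tdgf1.3.L, at 586 in control and 713 in TKD embryos, did not pass (0.30, adjusted P = 0.364). Nor did tdgf1.3.S (−0.18, adjusted P = 0.767). In this list, 4 of 22 entries were higher and 0 lower without the deeper TKD library, and 4 were higher and 1 lower of 23 without the deeper control library.

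Of 8 tested entries of a list for the dorsal Wnt input, 0 were higher and 3 (lrp6.1, lrp6.S and wnt11.S) were lower by limma-voom (median −0.43). At an unadjusted P under 0.05, 0 were higher, and limma-trend called 0 higher and 2 lower. These 8 entries belong to lrp6, tcf7, tcf7l1, wnt11 and wnt11b only. The list symbols ctnnb1, dvl2, sia1 and sia2 found no entry and are not analysed here, so the counts do not cover the whole input. The co-receptor entry lrp6.1 fell by 1.37 on the log2 scale (adjusted P = 0.00915), while lrp6.S, at −0.57 (adjusted P = 0.0840), passed in 4 of 10 other settings. Its adjusted P was 0.188 with library totals and 0.342 without the deeper control library, and leaving out either TKD library also ended the call (0.236 for the deeper and 0.217 for the shallower one). In the list 1 entry was lower without the deeper control library and 2 without any other 1 library. The ligand gene wnt11.S had 0 reads in both TKD libraries, against 6.08 and 10.96 normalized counts in the control libraries (adjusted P = 0.0538). It passed the filter on reads through the control libraries alone, which favours a call as lower. It could not be tested without either control library. The more abundant ligand entry wnt11b.L, with group means of 354.5 in TKD and 428.1 in control embryos, did not pass (log2 fold change −0.29, adjusted P = 0.354).

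Among 13 tested entries of other homeobox genes of the gastrula, 4 were higher and 0 were lower by limma-voom (median 0.73), with 0 lower at an unadjusted P under 0.05 and 0 lower by limma-trend. The list symbols otx2, sia1, sia2 and hesx1 found no entry and are not analysed here. The mesendodermal gene mix1 rose for both homeologs, as given above. In addition, mixer.L (log2 fold change 0.73, adjusted P = 0.0781) and otx1.L (0.74, adjusted P = 0.0933) passed, each in 7 of 10 other settings. For mixer.L the log2 fold change was 0.52 (adjusted P = 0.294) without the deeper TKD library and 0.47 (0.340) without the deeper control library. For otx1.L it was 0.54 without the shallower TKD library (adjusted P = 0.310) and without the shallower control library (0.232). The LIM homeobox gene lhx5, from the same family as lhx1, stood at log2 fold changes of 0.02 for lhx5.L (adjusted P = 0.961) and −0.08 for lhx5.S (adjusted P = 0.912).

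Among 13 tested entries of forkhead genes and of the T-box gene eomes, 2 were higher and 2 were lower (median 0.04). The T-box gene t, which fell as given above, is not in this list, and the list symbol vegt found no entry. The T-box gene entry eomes.S rose by 1.30 (adjusted P = 0.0141), and eomes.L was at 1.07 (adjusted P = 0.0786). For eomes.L it was 0.64 (adjusted P = 0.447) without the deeper TKD library and 0.83 (0.126) without the shallower control library. In the other direction, foxa2.S fell by 3.26 on the log2 scale (adjusted P = 0.0254) and foxc1.S fell by 1.26 (adjusted P = 0.0336). The entry foxa2.S passed the filter on reads through the control libraries alone, which favours a call as lower. Without the deeper TKD library 1 entry was higher (eomes.S) and 2 were lower, foxa2.S and, in place of foxc1.S (−0.99, adjusted P = 0.238), foxa2.L (−2.31, adjusted P = 0.0687). Of 12 entries tested without the shallower control library, 2 were higher and 1 was lower, and foxa2.S was not among those tested. Secreted organizer proteins antagonize BMP, Wnt or Nodal ligands or are ligands themselves, like the BMP-type Admp and the Hedgehog ligand Shh. Of 14 tested entries for such proteins, 7 were higher and 1 was lower (median 0.73). They include admp.S (1.66, adjusted P = 0.00939), the Wnt antagonist genes sfrp2.S (1.22, adjusted P = 0.0176) and sfrp2.L (0.98, adjusted P = 0.0517), and, in the other direction, frzb.L, which fell by 1.29 (adjusted P = 0.0115). The more abundant frzb.S, with group means of 452 in TKD and 529 in control embryos, did not pass (−0.22, adjusted P = 0.461). The list symbol chrd found no entry and is not analysed here. The adjusted P of sfrp2.L was 0.190 without the shallower TKD library and 0.157 without the deeper control library. With the deeper TKD library left out, 3 entries of this list were higher and 2 were lower, and with the deeper control library left out 4 were higher and 3 were lower.

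A list of genes of the ventral and posterior side and of BMP signalling gave 2 higher and 7 lower of 26 tested entries (median −0.54). Its symbols ventx2 and gata2 found no entry and are not analysed here. None of the tested ventx entries passed, with log2 fold changes from −0.66 (ventx3.2.S) to 0.03 (ventx3.2.L). The entry bambi.S did not pass either (0.14, adjusted P = 0.680). The posterior homeobox gene cdx4 was lower for both homeologs, as cdx4.L fell by 2.39 on the log2 scale (adjusted P = 0.0060) and cdx4.S fell by 2.58 (adjusted P = 0.0204). Without the deeper TKD library, cdx4.S was at −1.31 and no longer passed (adjusted P = 0.151). The BMP pseudoreceptor gene bambi.L fell by 1.08 (adjusted P = 0.0247, but 0.147 without the deeper TKD library), while the ligand gene wnt8a.L rose by 0.96 (adjusted P = 0.0217). Leaving out the deeper TKD library gave 1 higher and 3 lower entries, and leaving out any other 1 library gave 1 higher and 5 to 8 lower. The brachyury gene t and wnt8a, both known in Xenopus as genes that Gsc represses, have 4 entries, of which 1 was higher and 3 were lower (median −1.27). The S homeolog of wnt8a was at −0.69 (adjusted P = 0.0898), but it passed in 4 of 10 other settings and in none with a library left out (adjusted P from 0.125 to 0.262) or with library totals (0.166). In those fits 2 entries were lower, t.L and t.S, which fell as given above.

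Of 6 tested entries of the Ldb and Tle cofactors, which bind Lhx1 and Gsc or Hhex, 1 was higher and 2 were lower (median −0.50). The adaptor gene ldb1.L was at −1.01 (adjusted P = 0.0407), with an adjusted P = 0.1003 without the deeper and 0.145 without the shallower TKD library. The corepressor gene tle4.S was at 0.92 (adjusted P = 0.0550), and at 0.67 (0.308) without the deeper TKD and 0.74 (0.189) without the deeper control library. Another, tle1.S, was at −0.74 (adjusted P = 0.0996), and at −1.14 (0.0912) without the deeper TKD library, −0.46 (0.357) without its shallower counterpart and −0.63 (0.162) without the shallower control library. Leaving out the deeper TKD library gave 0 higher and 2 lower, leaving out the shallower one gave 1 higher and 0 lower, and scaling by library totals gave 1 higher and 1 lower. Endodermal genes gave 1 higher (sox7.L, 1.87, adjusted P = 0.0246, but 0.123 without the deeper TKD library) and 4 lower of 16 tested entries (median −0.57), among them gata6.S, which fell by 1.18 (adjusted P = 0.0131). These counts were 0 and 5 when the deeper TKD library was left out, 1 and 6 without the deeper control and 3 and 2 without the shallower control library. The lower endodermal entries include foxa2.S, which passed the filter on reads through the control libraries alone. The entry sox7.S was opposite in sign to sox7.L and did not pass (log2 fold change −1.755, adjusted P = 0.282). Its group means were 2.24 in TKD and 10.99 in control embryos. The part of stage, of the arrest and of changes in cell number in these values was not tested.

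**Figure D4:**
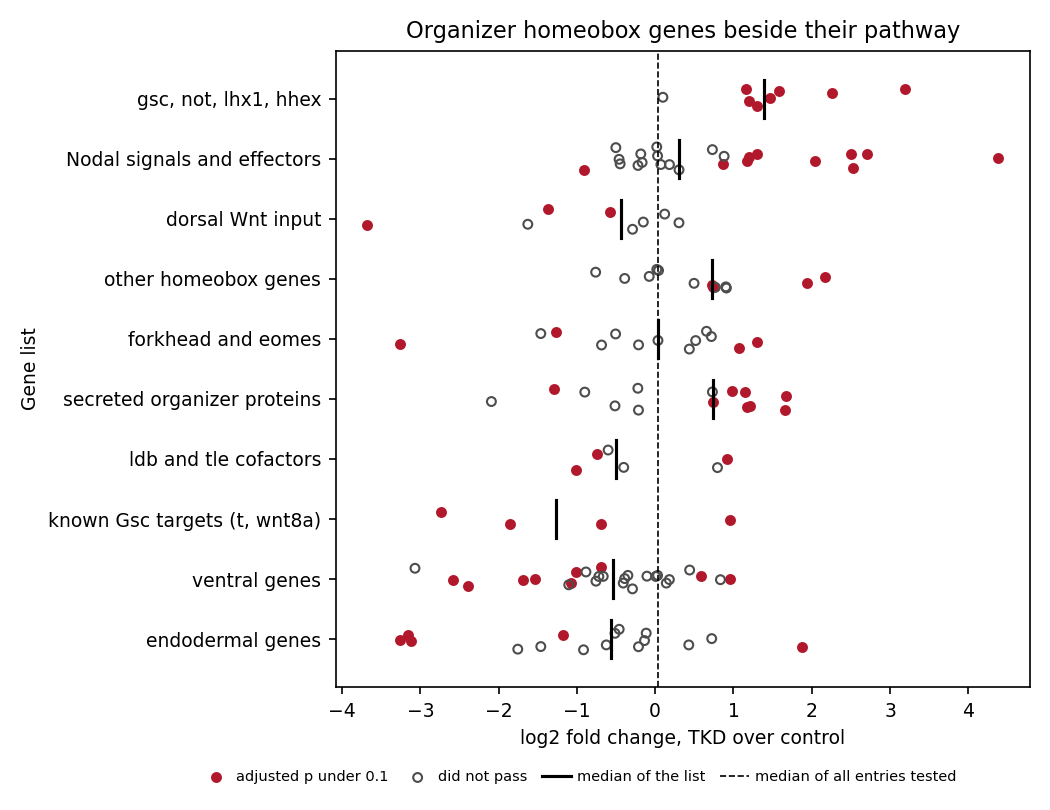
Log2 fold change (TKD over control) of each tested entry of the 4 organizer homeobox genes and of 9 gene lists, with red points for an adjusted P under 0.1, open points for entries that did not pass, a bar for the median of each list and a dashed line for that of all entries (0.04). Medians are 1.39 for the organizer homeobox genes, 0.30 for Nodal signals and −0.54 for ventral genes; some genes are in more than 1 list, and the fitted value of wnt11.S, at 0 reads in TKD, depends on the prior count of the fit.

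The entries most like each member were found by the distance between their centred log2 values over the 4 libraries, among 12698 other tested entries with a symbol. The distance is in log2 units, smaller means more alike, and with 4 libraries it mainly reflects the difference between groups and the split between the TKD libraries. Nearest to gsc.L were btg4.L, at a distance of 0.496, LOC100495220-like.L at 0.527 and nodal1.L at 0.607. These distances were large beside those found for the other members. Nearest to gsc.S were chac1-like.L at 0.0557, mix1.L at 0.163 and cmtm7.S at 0.210. Nearest to not.L were eomes.S at 0.0318, LOC734032-like.S at 0.0438 and slc25a16.L at 0.0725, and nearest to not.S were ammecr1l.S at 0.0210, dda1.L at 0.0527 and pex10.S at 0.0557. Of the L entries of the other genes, lhx1.L was nearest to LOC100486197-like.L at 0.0284, rpa2.S at 0.0584 and apitd1.L at 0.0719. The L entry of hhex was nearest to slc48a1.L at 0.0323, ube2j2.S at 0.0951 and Xetrov90012939m.L at 0.0978. For lhx1.S they were tor2a.S at 0.0117, mbd5.L at 0.0180 and lima1.L at 0.0326, and for hhex.S rac3.L at 0.0708, echdc3-like.L at 0.0840 and ccs.L at 0.0847. No member was among the 3 entries nearest to another member.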

How the data were processed

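Total RNA of 2 TKD and 2 control samples was depleted of ribosomal RNA and sequenced as 75 nt single-end reads. Mapping by the authors used STAR (1 mismatch allowed) and the JGI 9.1 genome, and reads were counted for each gene model. Groups were compared with DEseq. Which counter and which versions were used is not given in the sources used here. Deposited values are a signal, namely the mean over the 2 samples of a group of counts divided by size factors. The authors' fold changes, P-values and adjusted P-values in the same table were not used. Each mean adds whole reads of 1 library, at a fixed worth per read, to those of the other, from which size factors (1.06 and 0.605 for TKD, 1.97 and 1.28 for control) and reads were recovered. Reads were the only solution for 45089 TKD and 45083 control values of 45098. Solved entries held 92.9% of the signal in TKD and 88.9% in control embryos, so the totals given understate depth.

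Recovered reads, scaled by the size factors, were tested with limma-voom (limma 3.58.1, R 4.3.3) with Benjamini-Hochberg adjustment. Homeolog ratios used limma-trend with a pseudocount of 1. Scripts were tested on simulated data. Other steps used matplotlib 3.10.9, SciPy 1.17.1, pandas 2.3.3, NumPy 2.4.6 and Python 3.11.15. Groups follow the labels. Alternatives were library totals, upper quartiles, limma-trend, no filter, at least 20 reads in every library, thinning to 1411498 reads, each library left out, a threshold of 0.05, other pseudocounts and L and S added up. Of each of 12 gene lists, up to 4 entries called with the lowest adjusted P were named, beside the members, the entries of the targeted genes, 3 most alike entries per member, and lhx5, which was chosen after its values were seen. A gene that meets this rule is not reported here by name. The members and lists were chosen with earlier results of these data known. In all, 41 different list symbols found no entry and are not analysed here. Assembly Xenopus_laevis_v10.1 was used only for which genes neighbour each other.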

Additional observations from a re-analysis of the deposited data

How the results depend on the processing

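Of the 80 values that the 8 entries took under 10 alternatives, 77 kept their direction and their side of the threshold, 3 kept the direction but no longer passed, and 0 reversed. All 3 arose without the deeper TKD library, where not.L had a log2 fold change of 0.96 (adjusted P = 0.164), lhx1.L 1.06 (0.193) and hhex.S 1.15 (0.178), and 4 members passed (limma-voom). With 1 library left out, log2 fold changes ranged from 3.11 to 3.31 for gsc.L, 1.90 to 2.54 for gsc.S, 0.96 to 1.55 for not.L, 1.13 to 1.29 for not.S, 1.06 to 1.22 for lhx1.L, 0.09 to 0.11 for lhx1.S, 1.28 to 1.60 for hhex.L and 1.15 to 1.87 for hhex.S, and the members called from 4 to 7. Of all entries, 2727 were higher with library totals, 899 at an adjusted P under 0.05 and 877 to 1807 with 1 library left out, against 1750. Library totals raised the median of all entries by 0.17 on the log2 scale. The L minus S difference, called for none of the 4 genes, ranged with 1 library left out from −0.34 to 0.42 for not and from −0.42 to 0.41 for hhex, and was 0.0084 for hhex with a pseudocount of 5; the cause was not tested. No paired analysis was possible because the recovered libraries carry no replicate number. Depth and 2 libraries per group limit small changes, as for lhx1.S, whose interval ran from 0.752-fold to 1.52-fold.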

Other observations

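The genes that flank the 8 members in assembly Xenopus_laevis_v10.1 were looked up after the data were seen. No annotated gene overlapped a member. Of 16 flanking genes, 7 had an entry by symbol and 6 were tested in the same limma-voom fit. Of these 0 passed, and 1 had an unadjusted P under 0.05. Beside gsc, the RNase gene dicer1 stood at log2 fold changes of −0.14 for dicer1.L (adjusted P = 0.784) and −0.64 for dicer1.S (adjusted P = 0.161). Beside hhex, the mitotic kinesin gene kif11 stood at 0.45 for kif11.L (adjusted P = 0.383) and 0.61 for kif11.S (adjusted P = 0.105). Beside not.L, rab11fip5.L stood at −0.45 (adjusted P = 0.196), and beside lhx1.S, aatf.S stood at −0.03 (adjusted P = 0.939).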
